A study of Mus musculus with 60 samples.

Results

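The regions described here are 1090 promoters listed by the study as sites of H3K27me3 gain in Tet1 knockout over wild-type cells. The cells were mouse embryonic stem cells (ESCs) under a protocol that turns wild-type cells into anterior neural progenitor cells (antNPCs). At these promoters the mark was not found in every library. They are part of the study's gain-gain list, which holds 1443 regions without a significant difference on day 0 that had more H3K27me3 in the knockout at a later day. Of these, 1180 lay within 1.5 kb of a start site of a protein-coding transcript, and 90 of those had a peak in all 30 libraries and were set aside. The list was selected on the KO and WT libraries of day 0 to day 5 without inhibitor, so the values of those libraries are given as a description, with no test. The XAV and MUT libraries are outside the contrasts described for that list. Whether they entered its peak set or normalisation is not stated. The KO and WT libraries with XAV come from the same lines as those of day 5 that chose the list. Setting aside the regions called everywhere used all 30 libraries. A region counted as called in a library where at least 1 bp of it lay under a peak of that library, and "variable gain-gain promoters" stands for the 1090 regions from here on.

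CUT&RUN, which tethers a nuclease to an antibody and so releases the chromatin around its target, was used to map H3K27me3, with IgG as control. Libraries came from Tet1 KO lines (KO1, KO15, KO25), from lines with catalytically dead TET1 (MUT: CM40, CM59, CM69) and from Tet1 WT lines (WT70, WT72). All lines share the B6129S6F1 Tet1 tm1Koh background and were freed of feeder fibroblasts before differentiation. KO1 and KO15 come from blastocysts, and the MUT lines are clones of 1 wild-type line that was edited with Cas9 in the part of Tet1 encoding the catalytic domain. The origin of KO25, WT70 and WT72 beyond this background is not given in the sources used here. Cells were sampled as ESCs (day 0), on days 2, 3 and 5 of culture in serum-free neural medium with bFGF until day 3, and on day 5 after 5 µM of the Wnt inhibitor XAV939 from day 2 on (day 5 XAV). At all 5 time points a genotype was represented by 2 lines, which serve as replicates. The WT lines stayed the same throughout, whereas KO15 was paired with KO25 on days 0 and 2 and with KO1 later, and CM59 with CM40 on days 0 and 2 and with CM69 later, so in group means of KO and MUT the change of line and the step from day 2 to day 3 cannot be told apart. KO15 and CM59 span that step. The free-text description of the KO25 samples refers to a WT70 file, and their title, cell line and genotype fields were followed. Peaks give no readout of Tet1 itself (its promoter was called in 0 of 30 libraries), so the genotypes could not be checked here.

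Trimethylation of lysine 27 on histone H3 is written by Polycomb repressive complex 2, which settles on CpG-rich promoters and holds developmental genes silent until a lineage needs them. In ESCs many such promoters are bivalent, carrying this mark beside the activating mark H3K4me3, and they resolve as cells choose a fate. TET1 oxidises 5-methylcytosine and also binds CpG-rich promoters, where it can act together with Polycomb and other repressors without oxidation.

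Between 704 and 3466 peaks were called per library (median 1789), and this number differed between groups. A library with more peaks can call more regions, so the numbers of peaks are given beside the shares. The CM59 library of day 5 XAV stood apart with 704 peaks, against 1924 in CM69. It alone lacked a peak at 34 of the 49 variable gain-gain promoters called in 29 libraries. Promoters of 25 housekeeping genes were called in 0 of 30 libraries. Of 11 mesoderm and endoderm regulators 8 were called in all libraries, and so were 6 of 11 anterior neural progenitor regulators, among them Pax6, Six3 and Rax. On day 5 XAV 81.8% of the progenitor list was called in both KO lines, 72.7% in both MUT lines and 63.6% to 72.7% in WT. No peak was found at the promoters of the pluripotency genes Nanog, Zfp42 and Dppa5a in any library, while 50% to 60% of the 10 pluripotency genes were called in KO, 20% to 40% in MUT and 40% in WT on day 5. Of the 10 feeder fibroblast genes 3 were called in all libraries and 4 in none. In the study's single-cell data, day 5 KO cells were mainly mesoderm and endoderm, and WT cells mainly ectoderm. MUT cells were mostly ectoderm, with some mesoderm and endoderm. The study reports that XAV gave mainly forebrain cells in each genotype. On day 5 without XAV, genotype and cell type therefore cannot be told apart in KO and WT. In KO the step to XAV also came with a change of cell type. The part that cell type has in the values below was not tested.

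These promoters were rich in CpG, as promoters with H3K27me3 commonly are, and examples are shown so that their sequence can be read beside the calls. The following 300 bases (250 before and 50 after the start site, GRCm38.p6, from RefSeq) belong to promoters chosen by a rule over the regions named below. E2f8 and Tmem221 lead the regions called in both KO lines and neither WT line on days 3 and 5, and 6430548M08Rik and Adcy1 are from those with this pattern on day 5 XAV. Each is written 5′ to 3′ on the strand of its gene, with CpG dinucleotides in capitals.
E2f8: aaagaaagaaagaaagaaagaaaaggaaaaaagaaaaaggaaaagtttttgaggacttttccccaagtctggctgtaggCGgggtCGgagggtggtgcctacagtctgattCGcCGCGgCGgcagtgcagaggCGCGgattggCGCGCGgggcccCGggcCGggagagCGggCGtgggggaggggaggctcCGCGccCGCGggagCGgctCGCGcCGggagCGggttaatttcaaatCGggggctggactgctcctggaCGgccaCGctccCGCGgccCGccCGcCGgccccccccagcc
Tmem221: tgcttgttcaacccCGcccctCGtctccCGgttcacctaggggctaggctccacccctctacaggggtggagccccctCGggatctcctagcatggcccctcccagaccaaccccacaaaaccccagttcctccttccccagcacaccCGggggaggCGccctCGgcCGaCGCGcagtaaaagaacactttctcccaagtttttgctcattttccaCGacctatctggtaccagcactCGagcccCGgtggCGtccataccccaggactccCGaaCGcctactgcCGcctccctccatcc
6430548M08Rik: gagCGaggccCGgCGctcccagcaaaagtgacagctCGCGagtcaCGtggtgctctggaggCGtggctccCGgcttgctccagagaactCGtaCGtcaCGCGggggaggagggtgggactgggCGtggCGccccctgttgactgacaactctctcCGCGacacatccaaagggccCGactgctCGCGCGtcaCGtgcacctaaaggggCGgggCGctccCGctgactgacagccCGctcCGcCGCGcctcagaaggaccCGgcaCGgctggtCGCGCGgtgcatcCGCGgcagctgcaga
Adcy1: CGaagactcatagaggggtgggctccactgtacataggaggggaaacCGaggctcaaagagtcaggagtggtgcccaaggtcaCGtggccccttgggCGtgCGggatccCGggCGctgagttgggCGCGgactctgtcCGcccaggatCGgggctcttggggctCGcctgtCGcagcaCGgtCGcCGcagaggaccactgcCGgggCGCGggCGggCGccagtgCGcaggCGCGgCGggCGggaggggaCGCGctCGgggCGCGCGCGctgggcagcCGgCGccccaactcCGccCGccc
The E2f8 stretch lies on chromosome 7 (48881547 to 48881846, minus strand) and held 32 CpGs. Tmem221 is on chromosome 8 (71558822 to 71559121, minus strand) and had 17 CpGs, the fewest of these promoters. 6430548M08Rik is on chromosome 8 (120113902 to 120114201, plus strand) with 35 CpGs, and Adcy1 on chromosome 11 (7063183 to 7063482, plus strand) with 37 CpGs.

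Read the same way around the start sites of all genes, from the reference genome and with the start site richest in CpG for each gene, the 1176 genes at variable gain-gain promoters had a median of 25 CpGs per 300 bases (quartiles 15 and 35). The other 1585 genes with variable calls had a median of 23, the 439 genes called in all libraries 25, and all 21829 protein-coding genes 16. The GC box GGGCGG, on either strand, was in 70.7% of the promoters at these regions, against 67.1% of those of other genes with variable calls and 49.5% of all promoters. The TATA box TATAAA, also on either strand, was in 6.29%, against 7.26% and 11.4%. In CpG and GC box content these promoters therefore lay near the other genes with variable calls and above the average promoter. Both motifs are 6 letters long and do not overlap each other in sequence, and a match is a description of the letters only.

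As whole regions, the variable gain-gain promoters had a median width of 6735.5 bp (quartiles 4976.75 and 9295.75) and held 2.51 CpGs per 100 bp. Of the 1090 regions 1068 (98.0%) had a start site inside, and 22 reached only into the window around one. Introns made up a median of 50.7% of a region, exons of protein-coding transcripts 9.16% and sequence between genes 35.2%. They covered the promoters of 1176 genes, 1 gene at 999 regions, 2 at 76 and 3 or more at 15. The narrowest was that of Cwh43 with 1826 bp and the widest a stretch of 99150 bp over the imprinted genes Cdkn1c/Phlda2/Slc22a18. The 90 gain-gain promoters called in all libraries were wider, with a median of 15750.5 bp, at a like CpG density of 2.36 per 100 bp. Variable promoters of the study's other lists had similar widths, 7001 bp for the 537 with less of the mark in KO on day 0 and more by day 5 (loss-gain) and 7176 bp for the 451 with less of it on day 0 and no later gain (loss-loss). Their GC content was lower, with medians of 49.2% (quartiles 47.0% and 51.7%) and 49.8% (quartiles 47.4% and 52.0%), against 51.9% (quartiles 49.3% and 54.4%) at the variable gain-gain promoters. The quartile ranges overlap. The 263 gain-gain regions away from promoters were poorer in CpG, at 1.96 per 100 bp.

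Most of these promoters were called in a minority of libraries. The median was 9 of 30 libraries (quartiles 4 and 17). No region was called in 0 libraries, Cplx1, which encodes a regulator of vesicle release, was called in 1, and 379 (34.8%) were called in 2 to 5. At the other end 126 (11.6%) were called in 25 to 29 libraries. Regions called more often were wider, with medians of 4726.5 bp for 1 to 5 libraries, 6812 bp for 6 to 15, 9032 bp for 16 to 24 and 11025.5 bp for 25 to 29, while CpG density was lower in the wider ones, at 2.77, 2.50, 2.30 and 2.30 per 100 bp. Just inside the limit of 29 libraries stood, among others, Agap2, Aqp2/Aqp5, Avp/Oxt and Bean1, and just outside it, with a peak in all 30, Adamts2, Adcy8, Adgrb1, Adra1d and Adra2c. At the limit of distance, the region near Ncam1 (1407 bp from the start site, 2 libraries) was inside, and that near Tnfaip8l1 (1532 bp, 9 libraries) outside.

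**Figure D1:**
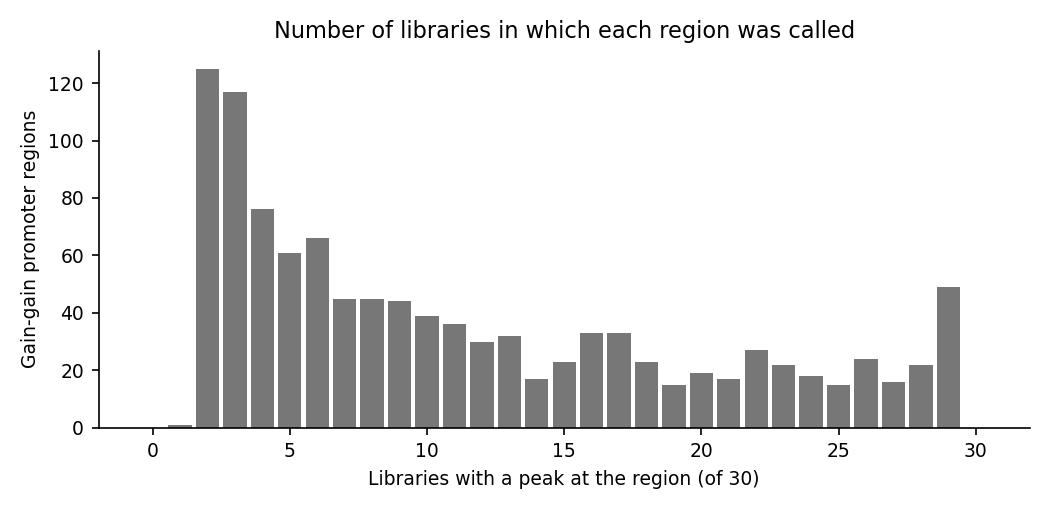
Number of libraries (x axis, of 30) in which each of the 1090 variable gain-gain promoters had an H3K27me3 peak. Bars count regions, which are most numerous at 2 libraries (125 regions) and 3 libraries (117 regions), with a smaller rise at 29 (49 regions).

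In ESCs the genotypes covered similar shares of these promoters, and the 2 lines of a genotype lay far apart. On day 0, KO lines called 41.5% (KO15) and 56.1% (KO25) of them, MUT lines 34.1% (CM59) and 73.6% (CM40), and WT lines 26.9% (WT70) and 71.2% (WT72). These shares followed the peak numbers, which were 1911 and 2874 in KO15 and KO25, 1728 and 3466 in CM59 and CM40, and 1484 and 3450 in WT70 and WT72. On day 2 the groups overlapped again, with 36.7% ± 15.2 in KO, 35.6% ± 8.95 in MUT and 39.6% ± 7.33 in WT (mean and SD, n = 2 lines each). Peak numbers were then 1317 and 2076 in KO15 and KO25, 1586 and 2018 in CM59 and CM40, and 2185 and 1856 in WT70 and WT72.

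After day 2 the WT share was low and the KO share was not. On day 3, KO lines called 41.1% (KO1) and 34.2% (KO15, after 26.0% on day 2), against 8.44% (WT70) and 14.3% (WT72) in WT. On day 5 the KO lines reached 59.4% (KO1) and 76.8% (KO15), against 15.5% (WT70) and 19.5% (WT72). The groups did not overlap on either day, which is the direction the list was selected for. Peak numbers differed in the same direction, with 1877 (KO1) and 1849 (KO15) on day 3 against 969 (WT70) and 1135 (WT72), and 2122 (KO1) and 2738 (KO15) on day 5 against 1270 (WT70) and 1385 (WT72).

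**Figure D2:**
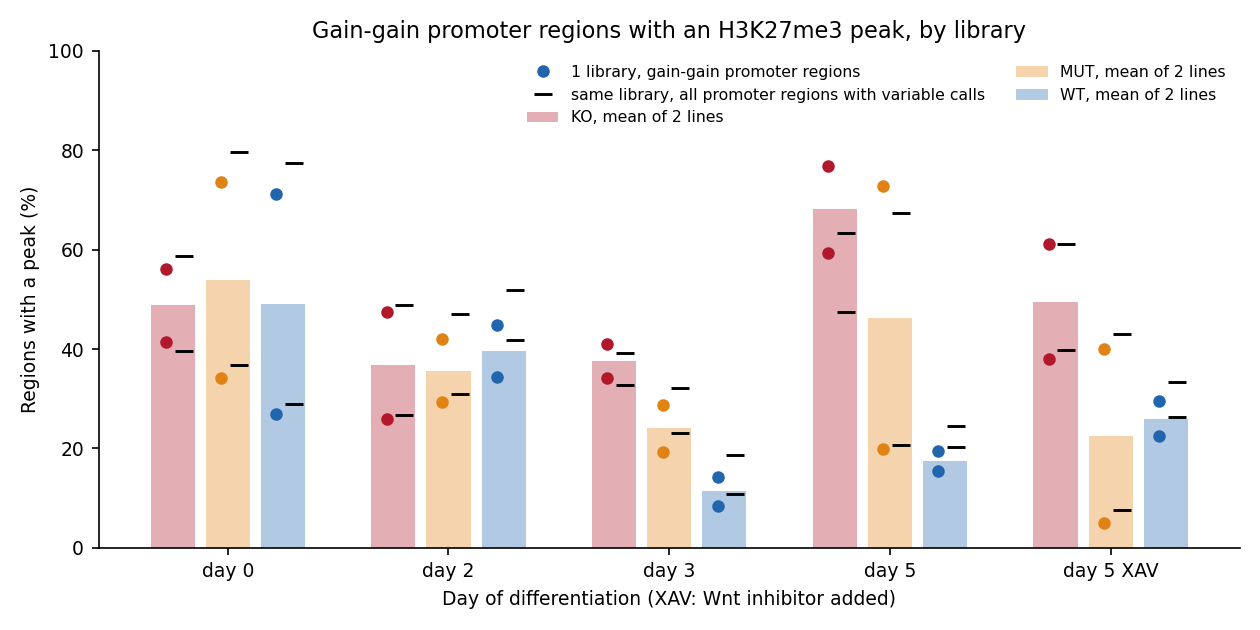
Share of the variable gain-gain promoters with a peak (y axis, percent) by day, with KO, MUT and WT from left to right. Points are single libraries, bars the mean of the 2 lines, and black dashes the share of all promoter regions with variable calls in the same library. KO points lie above WT points on day 3, day 5 and day 5 XAV, while the MUT points lie far apart on day 5 (72.8% and 19.8%) and day 5 XAV (4.95% and 39.9%).

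Counted region by region, 411 of 1090 (37.7%) were called in both KO lines and neither WT line on day 5, and 0 the other way round. Over all 2587 merged promoter regions that were called in 2 to 29 libraries, the background used from here on, the share was 23.8%. The variable gain-gain promoters were not taken out of this background. A share near that of the background is therefore no comparison with other promoters alone. On day 3 the count was 195 (17.9%), against 13.6% of the background, again with 0 the other way. Before that it was near none, with 2 (0.183%, background 0.193%) on day 0 and 9 (0.826%, background 0.348%) on day 2. On day 2 the opposite pattern was more frequent, with 16 regions (1.47%) called in both WT lines and neither KO line, against 3.02% of the background. The day 3 and day 5 contrasts are those the list was selected on, and nothing is read from these counts beyond the description.

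Most regions without a WT call after day 2 had been called in WT before. In no WT library after day 2 were 700 of the 1090 regions called, but 499 of those 700 had been called in at least 1 WT library on day 0 or day 2, and 201 in none at any time. The share of 71.3% was below the background, in which 1261 of 1570 such regions (80.3%) had been called in WT early. Both WT lines called 361 regions on day 2, and 147 of these (40.7%) were called in neither on days 3 and 5, near the 39.6% of the background. Of the 147, 82 were called in both KO lines on day 2, 89 in both KO lines on day 5 and 10 in both MUT lines on day 5. Over all 1090 regions the shares called in both of these lines were 25.9%, 58.6% and 19.8%, in the same order. Of the 411 regions called in both KO and neither WT line on day 5, 301 had been called in at least 1 library of day 0, 272 of them in WT72, whereas 102 were in no KO or WT library of days 0 and 2. The same pattern was present on day 3 at 101 of the 411, and on days 3, 5 and 5 XAV at 26. On day 0 the WT72 library called 71.2% of all 1090 regions and 77.4% of the background. For the 301 and the 102 regions no background share was taken, and nothing is read from these counts. Over the 6 KO and 6 WT libraries after day 2, KO had more calls than WT at 838 regions (76.9%), as many at 245 (22.5%) and fewer at 7 (0.642%), with a median difference of 2 libraries. In the background the shares were 62.9%, 34.1% and 2.94%. Most of these libraries chose the list, and nothing is read from the difference.

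The size of this difference depended on the number of peaks. When the 1191 strongest peaks of each day 5 library were kept, by their total signal, KO lines called 26.1% (KO1) and 25.9% (KO15) of the regions, against 13.9% (WT70) and 15.0% (WT72). The groups still did not overlap, but the difference of 50.6 percentage points became 11.5. The count of regions in both KO and neither WT line was then 90 (8.26%), against 4.79% of the background, with 5 the other way, and 69 of the 90 belonged to the 411. On day 3, at 969 peaks, it was 40 (3.67%), against 1.93% of the background, with 6 the other way. How much of the remainder comes from differences in depth or signal between libraries was not tested.

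Only 13 regions showed the pattern on both days at equal peak numbers, and those named here were chosen after their values were seen. They include Adcy1, which encodes a calcium-stimulated adenylyl cyclase, the calcium channel subunit gene Cacng4, Shisa7, an auxiliary subunit of GABA type A receptors, Hapln4, a link protein of the perineuronal matrix, the axon guidance gene Draxin with Mad2l2, and the transcription factor genes Npas1 and Creb5. Also among them were Nav2, Prmt8, Prss16, Rgs20 and a region shared by Ankrd34a, Lix1l and Polr3gl.

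**Figure D3:**
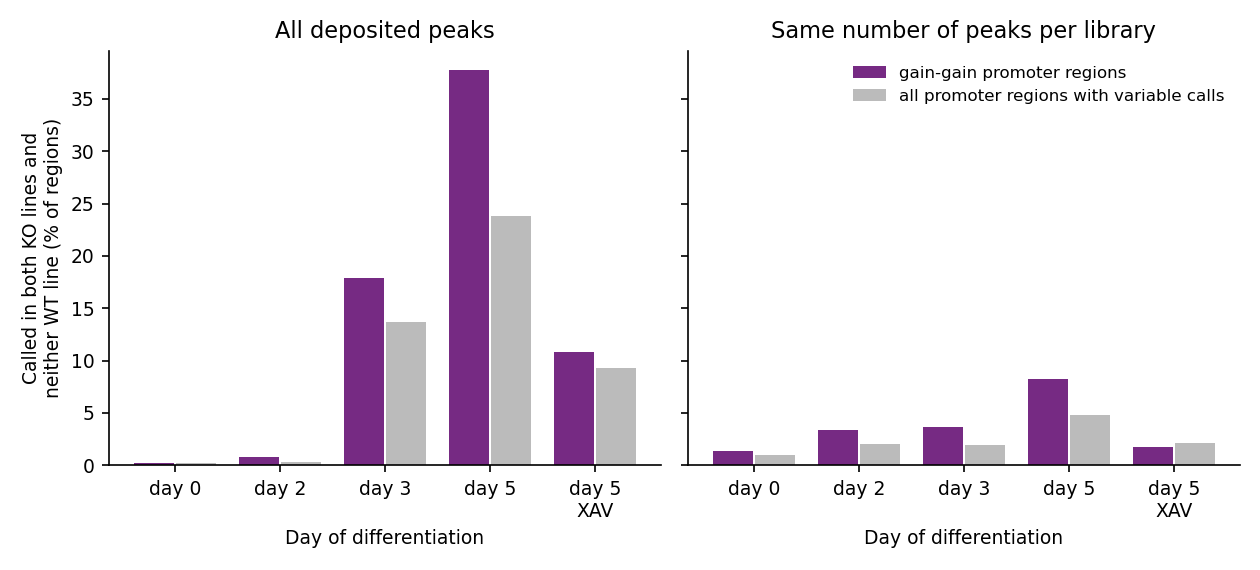
Share of regions (y axis, percent) called in both KO lines and neither WT line by day, for the variable gain-gain promoters (purple) and all promoter regions with variable calls (grey), with all deposited peaks (left) and with the same number of strongest peaks in each library of a day (right). With all peaks the day 5 bars stand at 37.7% and 23.8%, with equal numbers at 8.26% and 4.79%.

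Under Wnt inhibition, in libraries outside the contrasts described for the gain-gain list, the KO lines again had more of the promoters called than WT. On day 5 XAV the KO lines called 37.9% (KO1) and 61.1% (KO15), against 22.6% (WT70) and 29.4% (WT72). Both KO values lay above both WT values, with a difference of 23.5 ± 12.1 percentage points (SE, n = 2 lines each). The two-sided exact permutation test gave p = 0.333 (0.889 after Benjamini-Hochberg adjustment over the 4 comparisons tested), the smallest p that 2 lines against 2 allow. These libraries had a part in setting aside the regions called everywhere, and with those kept (1180 regions) the difference was 21.7 percentage points. Peak numbers were 1729 (KO1) and 2461 (KO15), against 1407 (WT70) and 1717 (WT72). Over the background the difference was 20.7 percentage points. Called in both KO and neither WT line were 118 regions (10.8%), near the 9.28% of the background, and 2 (0.183%, background 0.232%) the other way. At 704 peaks per library the difference was 0.917 percentage points (exact permutation p = 0.667), with 6.15% (KO1) and 7.34% (KO15) against 6.70% (WT70) and 4.95% (WT72), and the count was 19 (1.74%, background 2.16%), with 11 the other way. Only 1 of the 19 was among the 118 regions. At equal peak numbers the groups overlapped.

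The 411 regions of day 5 split under XAV. Both KO lines called 151 of them (36.7%), 72 with neither WT line (17.5%), and neither KO line called 134 (32.6%). At least 1 WT line called 110 of them (26.8%) on day 5 XAV. For the 615 background regions with the same day 5 pattern the shares were 38.9%, 18.2%, 27.6% and 28.1% in this order. The 411 were not taken out of that background, so a likeness of the splits is partly built in and nothing is read from it. KO1 had 1729 peaks with XAV against 2122 without, and KO15 2461 against 2738. The study's own list of regions gained in KO on day 5 XAV, which was selected on the KO and WT XAV libraries, held 597 of the variable gain-gain promoters, which is 54.8% of these promoters and 31.5% of its 1897 regions. Promoters within that list were called in 64.1% of KO and 26.4% of WT libraries on day 5 XAV on average, and the other 493 in 31.8% of KO and 25.6% of WT libraries.

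In cells with catalytically dead TET1 the 2 lines lay far apart on day 5 and day 5 XAV, by more than the KO and WT means. On day 3 MUT lines called 28.8% (CM59, after 29.3% on day 2) and 19.3% (CM69) of the regions, both above the 8.44% and 14.3% of the WT lines. They had 1631 and 1452 peaks, against 969 and 1135 in WT70 and WT72. Both MUT and neither WT line called 63 (5.78%), close to the 5.84% of the background. On day 5 the values were 72.8% for CM59, with 2847 peaks, and 19.8% for CM69, with 1191 peaks, against 15.5% (WT70) and 19.5% (WT72) in WT. Of the 411 regions in both KO and neither WT line, CM59 called 364 and CM69 only 41. Both MUT and neither WT line called 42 regions on day 5 (3.85%), against 2.74% of the background. At 1191 peaks per library the MUT lines called 21.2% (CM59) and 19.8% (CM69), above both WT lines, and both MUT and neither WT line called 40 regions (3.67%, background 2.44%), with 6 the other way. These comparisons share the WT libraries that chose the list and carry no test.

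On day 5 XAV the order of the MUT lines was reversed, with 4.95% in CM59 and 39.9% in CM69. MUT differed from WT by -3.58 ± 17.8 percentage points (SE, n = 2 lines each, exact permutation p = 1, adjusted p = 1), and without CM59 the difference was 13.9. The rule kept 34 regions that only the CM59 library of day 5 XAV lacked, which lowers the MUT share. With the regions called in all libraries kept the difference was -3.31, and without those 34 it was -2.08. Both MUT and neither WT line called a single region (0.0917%, background 0.116%), that of Inhba, which encodes the activin A subunit. KO exceeded MUT by 27.1 ± 20.98 percentage points (exact permutation p = 0.667, adjusted p = 0.889), and by 25.2 over the background. Without CM59 the difference was 9.59. It was 25.0 with the regions called in all libraries kept, and 26.3 without the 34 regions. Both KO and neither MUT line called 78 regions on day 3 (7.16%, background 4.45%), 47 on day 5 (4.31%, background 2.28%) and 57 on day 5 XAV (5.23%, background 4.33%). At equal peak numbers the counts were 31 (2.84%, background 1.43%), 43 (3.94%, background 2.40%) and 16 (1.47%, background 1.28%). The other way they were 5 (0.459%, background 1.24%), 8 (0.734%, background 2.59%) and 7 (0.642%, background 0.889%). Of the 31, 43 and 16 regions, 3, 1 and 0 were among the regions counted with all peaks. The KO libraries of days 3 and 5 chose the list, and the regions of these counts depended on the number of peaks. Within MUT, XAV changed the share by -67.8 percentage points in CM59 and by 20.1 in CM69, on average -23.9 ± 31.7 (SE, exact permutation p = 0.667, adjusted p = 0.889). The average was -22.0 with the regions called in all libraries kept, and -23.0 without the 34 regions. With the lines as pairs (replicate block) the average of -23.9 had an exact p = 1. In each line the share moved with the number of peaks, which was 704 on day 5 XAV against 2847 on day 5 in CM59, and 1924 against 1191 in CM69.

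Regions called in both KO lines and neither WT line on days 3 and 5 were ordered by KO minus WT calls over all time points. After day 2, 26 of them had 6 KO and 0 WT calls. First in this order, with ties broken by fewer WT calls, was E2f8, a repressive E2F factor of the cell cycle (chromosome 7, 48881158 to 48889179). It was called in KO1 and KO15 on days 3, 5 and 5 XAV, in KO25 on day 2, in 1 MUT library each of days 2, 5 and 5 XAV, and in no WT library. Tmem221, which encodes a transmembrane protein (chromosome 8, 71554118 to 71561185), had the same KO calls and no WT call. Dnase2a, the gene of a lysosomal DNase (chromosome 8, 84908330 to 84914413), was found in KO1 and KO15 on days 3, 5 and 5 XAV, in CM59 on day 5 and in no other library. For E2f8 the height of the peak stood at the 9.66 percentile of all peaks of KO1 and the 26.9 percentile of those of KO15 on day 5, and for Dnase2a at the 42.9 and 78.2 percentile. On day 5 XAV the values were 36.9 and 47.8 for E2f8 and 9.22 and 42.1 for Dnase2a, all below the median peak of the library.

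Some other regions of this group had been called in WT early on. Mmp24, a membrane-bound matrix protease gene (chromosome 2, 155771214 to 155778722), was called in WT72 on day 0 and WT70 on day 2, in no WT library later, and in each of the 6 later KO libraries. Shisa7 (chromosome 7, 4833495 to 4846229) and Kif19a, a kinesin gene (chromosome 11, 114763080 to 114769600), were called in both WT lines on day 2, in 0 of 6 WT libraries afterwards and in 6 of 6 KO libraries. Begain, which encodes a protein of the postsynaptic density, had calls in 10 of 10 KO and 3 of 10 WT libraries. Fbxl16, an F-box protein gene, Nrtn, the gene of the neurotrophic factor neurturin, and Rnf165, a ubiquitin ligase gene, had no WT call at any time while 4, 5 and 4 of the 6 later KO libraries called them. Arntl, which encodes the circadian factor BMAL1, had 6 of 6 KO and 0 of 6 WT calls from day 3 on. Of the regions named from the head of the order by KO minus WT calls, most lost the pattern at equal peak numbers. Only those of Shisa7 and of Ankrd34a, Lix1l and Polr3gl kept it on days 3 and 5. Further down the order, Adcy1 and Hapln4 were among those that kept it too.

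On day 5 XAV the named regions were, beside Arntl, Begain and the Ankrd34a region, those of Adcy1, Arhgef7, Atf3, Clec2l and 6430548M08Rik, each in 6 of 6 KO and 0 of 6 WT libraries after day 2. Arhgef7 encodes an activator of small GTPases of the cytoskeleton, and Atf3 a transcription factor induced by stress. All 5 had been called in WT before, in 3 of 10 libraries for Adcy1 and Atf3, 4 for Arhgef7 and Clec2l and 2 for 6430548M08Rik, all on days 0 and 2. The peak at Atf3 was a strong one in KO15 on day 5 XAV, at the 84.4 percentile, but not in KO1, at the 48.3 percentile. That at 6430548M08Rik was weak in both, at the 10.1 percentile in KO15 and the 11.7 percentile in KO1.

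**Figure D4:**
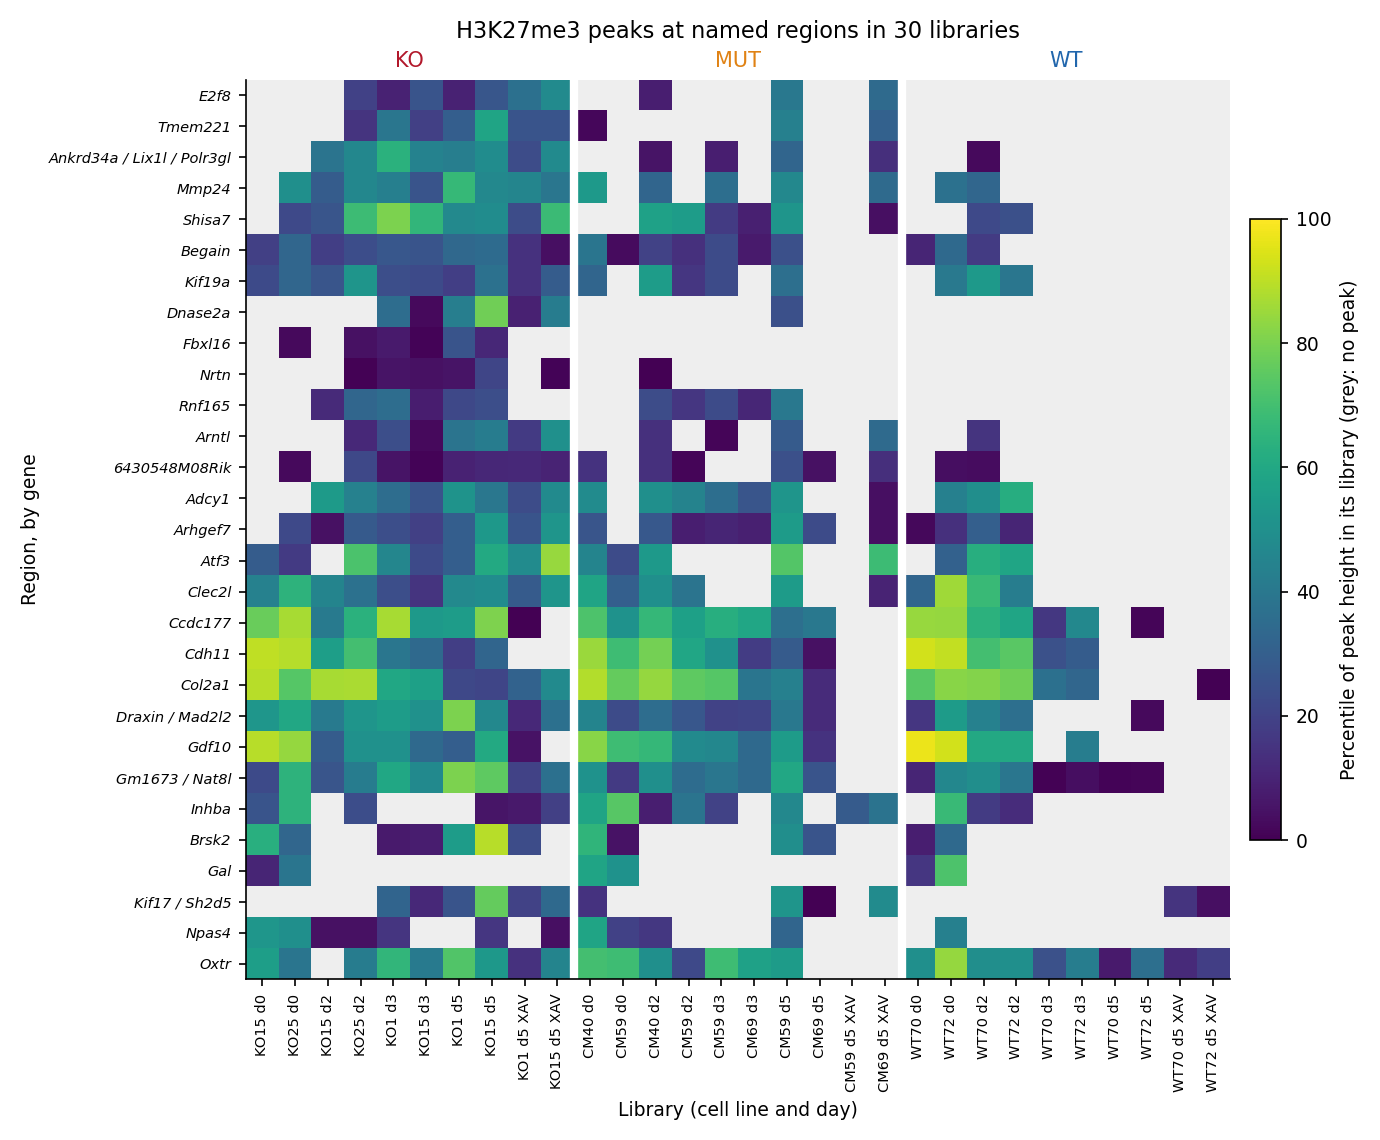
Peaks at named regions (rows) in the 30 libraries (columns, KO, MUT and WT from left to right, each by day). Colour gives the percentile of the peak's height among all peaks of its library, and grey means no peak. The upper rows, from E2f8 to Clec2l, are filled in all or most of the KO columns after day 2 and grey in all WT columns after day 2.

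Regions that both MUT lines called on day 5 and neither on day 5 XAV numbered 24 (2.20%), and 0 had the opposite pattern, against 1.20% and 0.232% of the background. The named ones were called in 8 of 10 MUT libraries. They include Cdh11, a cadherin gene of mesenchyme, Col2a1, the cartilage collagen gene, Gdf10, which encodes a ligand of the BMP family, Draxin with Mad2l2, Ccdc177, and Nat8l, the gene of the enzyme that makes N-acetylaspartate, with Gm1673. Cdh11 (chromosome 8, 102780309 to 102790729) was also called in both KO lines on day 5 and neither on day 5 XAV, and in no WT library of either. Its peaks were tall on day 0, at the 90.6 and 88.9 percentile in KO15 and KO25 and the 93.2 and 90.9 percentile in WT70 and WT72, and low on day 5, at the 18.5 and 32.5 percentile in KO1 and KO15. Over all variable gain-gain promoters, both KO lines called 138 on day 5 and neither on day 5 XAV, with 9 the other way, whereas both WT lines called 5 on day 5 and neither on day 5 XAV, with 60 the other way. For KO these are 12.7% and 0.826%, against 6.84% and 3.09% of the background, and for WT 0.459% and 5.50%, near the 0.464% and 5.10% of the background. Peak numbers moved in the same direction in KO1, KO15 and CM59, which had fewer peaks with XAV than without (704 against 2847 in CM59). They did so too in WT70 and WT72, which had more (1407 against 1270 and 1717 against 1385). In CM69 they moved opposite to the MUT counts, with more peaks under XAV (1924 against 1191). The part of peak numbers in these counts was not tested.

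By function, cytoskeleton genes and potassium, calcium and sodium channel genes lay at these promoters more often than homeobox, Wnt or BMP genes. Shares are of the variably called genes of each group. Of 2739 protein-coding genes whose promoter was called in at least 2 but not all libraries, 1154 (42.1%) lay at a variable gain-gain promoter. The groups below were compared with that share without a test. Of kinesin, tubulin and neuronal cytoskeleton genes 20 of 26 (76.9%) lay at one, of calcium and sodium channel genes 11 of 18 (61.1%), of cadherin and protocadherin genes 28 of 53 (52.8%), many of which share a region, and of potassium channel genes 25 of 49 (51.0%). Glutamate receptor genes (9 of 20, 45.0%), synapse and vesicle genes (15 of 33, 45.5%) and receptors of acetylcholine, monoamines and peptides (18 of 43, 41.9%) were near the overall share. GABA and glycine receptor genes were below it, at 2 of 9 (22.2%). Homeobox genes were at 9 of 39 (23.1%), Wnt pathway genes at 9 of 31 and BMP and TGF-beta genes at 6 of 32 (18.8%). Of 163 homeobox genes 112 were called in all libraries, against 8 of 93 potassium channel genes and 2 of 89 cytoskeleton genes.

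**Figure D5:**
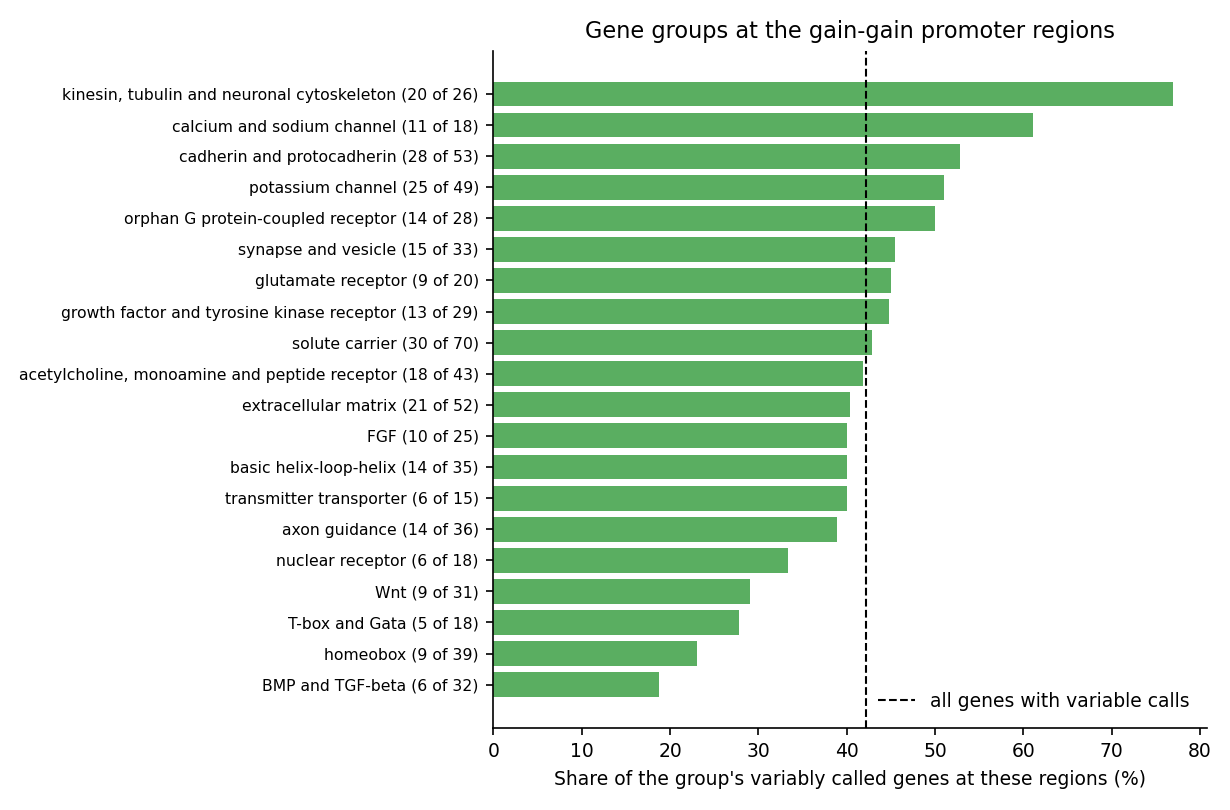
Share of each gene group's variably called genes that lie at a variable gain-gain promoter (x axis, percent), with the counts in the labels. The dashed line marks 42.1%, the share over all genes with variable calls. Cytoskeleton genes (76.9%) stand at the top and BMP and TGF-beta genes (18.8%) at the bottom of the groups with at least 15 such genes.

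Potassium channels set the resting potential and shape firing, and their genes covered 26 regions. KO had more calls than WT after day 2 at 21 of these and as many at 5, with a median difference of 3 libraries, against 2 over all 1090. More KO calls were found at 838 of all 1090 regions (76.9%), the direction the list was selected for, and the counts of the gene groups that follow are to be read beside this share. Kcna3 and Kcnb2, voltage-gated channels, were called in 10 of 10 KO libraries, in 8 of 10 MUT libraries, and in both WT lines on days 0 and 2 but in 0 of 6 WT libraries later. Kcns2, a modulatory subunit, had 6 of 6 KO calls and 1 WT call after day 2. Kcnj10, an inward rectifier of glia, had 5 and 0. The calcium channel subunit genes Cacng4 and Cacna1i had 6 KO calls each from day 3 on, against 2 WT calls for Cacng4 and 3 for Cacna1i. Cacnb3, also a calcium channel subunit gene, had 4 KO calls after day 2, all on day 5 with or without XAV, and no WT call at any time.

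At the synapse, 19 regions of vesicle and scaffold genes included 14 with more KO than WT calls after day 2 and 5 with as many, near the overall share. Dlgap3, a scaffold gene of excitatory synapses, had 6 and 0 calls after day 2, with both WT lines called on day 2. Rims1, which organises the release site, had 5 and 0, the Shank1 region 4 and 0, and the region of Nrxn2, a presynaptic adhesion gene, 5 and 1. Among 10 glutamate receptor regions 9 had more KO calls and 1, that of Grid2ip, fewer. Grin3a had 6 KO and 3 WT calls, Grm2 3 and 0 and Grin2b 2 and 0, the last with both KO calls on day 5. The GABA receptor genes Gabrd and Gabrg3 had 1 KO and 0 WT calls each. The serotonin transporter gene Slc6a4 had 6 KO and 2 WT calls, and Hrh3, a histamine receptor gene, 6 and 2.

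Cytoskeleton genes covered 22 regions, 17 with more KO than WT calls after day 2 and 5 with as many, near the overall share. On day 5, 15 of the 22 were called in both KO and neither WT line, as were 37.7% of all 1090 regions and 23.8% of the background. Crmp1, which encodes a collapsin response mediator, had no KO call before day 3 and 6 of 6 from then on, was called in CM40 on day 0 and 4 later MUT libraries, and in WT only in WT72 on day 5 XAV. Brsk2, a kinase of neuronal polarity, was called in all 6 libraries of day 0 and in none of day 2, then in 5 KO, 2 MUT and 0 WT libraries. Among axon guidance genes, Plxnc1, a semaphorin receptor gene, had 5 and 2 calls, and the region of Ntn3 and Tbc1d24 5 and 0. Of 14 axon guidance regions 11 had more KO calls and 3 as many, again near the overall share.

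Among signalling genes, 6 of 9 Wnt regions had more KO than WT calls after day 2 and 3 as many. It was 5 of 6 regions for BMP and TGF-beta, 10 of 11 for FGF and 4 of 4 for Hedgehog, Notch and retinoic acid genes. For growth factors and tyrosine kinase receptors it was 11 of 14. No region of these groups had fewer. The list was selected for this direction, found at 76.9% of all 1090 regions, and the genes named were chosen by the size of the difference. Wnt4, a Wnt ligand gene, was called in 10 of 10 KO libraries, in both WT lines on days 0 and 2 and in 1 of 6 WT libraries later. Wnt9a had 6 KO and 2 WT calls after day 2 and Wnt5b 4 and 1. Dll1, a Notch ligand gene, had 5 and 0. Lfng, a modifier of Notch, was called in both KO and both MUT lines on days 0, 2 and 3 and in both WT lines on days 0 and 2, but in no library afterwards. Erbb4, a neuregulin receptor gene, had 5 and 0. Bdnf, the gene of a neurotrophin, had 2 KO calls, both on day 5, and no WT call at any time. Among regulators, the Hes5 and Hes7 regions, encoding targets of Notch, had 5 and 0 each, Neurod1, a neuronal differentiation factor gene, 4 and 0, and Phox2a, a homeobox gene of autonomic neurons, 5 and 1. The Sox3 region, on the X chromosome (60891405 to 60900320), was called in both KO lines on day 5, in CM40 and WT72 on day 0 and in no other library. Sox3 is a factor of neural progenitors. The Zic2 and Zic5 region, which encodes zinc finger regulators of early neural tissue, was called in every library of day 0 and in none of days 2 and 3. Both KO lines called it on day 5 and on day 5 XAV, CM59 on day 5 and CM69 on day 5 XAV. In WT it was called in both lines on day 5 XAV and in neither on day 5.

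Some genes that the study's text names lie at these promoters. Gal, the galanin gene (chromosome 19, 3410775 to 3416199), was called in all 6 libraries of day 0 and in none of the other 24. The region of Kif17, a kinesin of dendrites, and Sh2d5 (chromosome 4, 138249157 to 138265939) was called in both KO lines on days 3, 5 and 5 XAV and in both WT lines on day 5 XAV only. Npas4, an activity-dependent transcription factor gene, had 3 KO calls and 0 WT calls from day 3 on. Oxtr, the oxytocin receptor gene, was called in 9 of 10 KO, 7 of 10 MUT and 10 of 10 WT libraries.

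The exceptions were few. At 7 regions WT had more calls than KO after day 2, each by 1 library. Cpt1a, which encodes the enzyme of mitochondrial fatty acid import, was called in 5 of 6 KO and 6 of 6 WT libraries, with KO15 missing on day 3. Mal, a myelin protein gene, had 5 and 6. Dgkz had 3 and 4, Sez6 3 and 4, Hmcn2 2 and 3 and Grid2ip 1 and 2. The last of the 7, Slc35d3 with 3 and 4, lies outside the naming rule and was added after its values were seen. Called in both KO lines on day 5 and in no other library were 9 regions, those of Abcc4, Acot7, Cnnm2, Ece1, Frmd5, Lrp2, Maneal, Map1a and Srcin1, named here after their values were seen.

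The peaks that called these promoters were among the lower ones of their libraries. The median percentile of peak height at variable gain-gain promoters was between 24.9 and 45.3 over the 30 libraries (median 34.3), against 54.4 to 87.8 (median 79.7) at the 90 gain-gain promoters called in all libraries and a median of 38.1 over the background. On day 5 the medians were 38.3 and 42.0 in the KO libraries, 29.6 and 40.1 in the MUT libraries and 26.7 and 28.6 in the WT libraries. The KO medians lay above those of WT, in libraries that chose the list. On day 5 XAV they were 31.4 and 39.3 in KO, 28.8 and 34.7 in MUT and 29.7 and 31.8 in WT, and the groups overlapped. Where called, a region was covered by peaks over a median of 59.5% of its length, between 40.0% and 90.3% over the libraries.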

How the data were processed

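The 60 samples comprise 30 H3K27me3 and 30 IgG libraries, and IgG entered only through the authors' peak calling. Reads were trimmed by the authors (Trim Galore), mapped to GRCm38.p6 (mm10) with Bowtie in local mode and freed of duplicates (Picard), and SEACR, in stringent mode against IgG, gave the peaks of each library. The SEACR version is not given in the sources used here. For each peak the authors deposited the total and the highest signal, as whole numbers with no stated scaling between libraries, and these were used only to rank peaks within a library. Read depth is unknown from these values, so the number of peaks per library stands in its place. The gain-gain list was made by the authors with DiffBind 3.0.15 from KO and WT libraries and holds positions only, with no other measurement, and the same is true of the other lists. The number of columns of unmapped samples was 0.

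Start sites of protein-coding transcripts came from GENCODE M21. No peak (0) extended beyond a chromosome of this build, and 70.7% to 85.7% of the peaks of a library lay within 1.5 kb of a start site, compared with 11.8% to 18.6% when peaks were moved by 1 Mb. Peaks of all libraries were merged, and merged promoter regions with a peak in 2 to 29 libraries were the background. Those at the variable gain-gain promoters were kept in it. The regions, gene groups, named-gene rule and comparisons were chosen with earlier results of these data known. Named regions were the first by KO minus WT calls among those in both KO and neither WT line on days 3 and 5 or on day 5 XAV, the first by MUT calls among those in both MUT lines on day 5 and neither on day 5 XAV or in both MUT and neither WT line on day 5 XAV, up to 4 per gene group, genes of the study's text, regions with more WT calls, and the ends of the range. A few genes that this rule names are not reported here. Of 1176 genes 855 matched the RefSeq promoter table by symbol.

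Shares were compared between 2 lines and 2 by two-sided exact permutation, whose smallest p is 0.333, so the design cannot reach significance. Each unpaired p-value is the share of the 6 assignments of lines to groups that gave a difference at least as large. XAV was given to the same lines, so lines pair these samples, and deviations of the lines on day 5 and day 5 XAV correlated over regions at 0.173 in KO, -0.0899 in MUT and 0.0644 in WT. Alternatives were stricter peaks, equal peak numbers, a larger overlap, other promoter windows and leaving out lines. Counting code was tested on simulated data. Python 3.11.15, NumPy 2.4.6, pysam 0.24.0, samtools 1.23.1 and Matplotlib 3.10.9 were used.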

Additional observations from a re-analysis of the deposited data

Results flagged for a closer look

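XAV was followed by opposite changes in KO and WT lines. From day 5 without to day 5 with XAV, the share of the variable gain-gain promoters that was called changed by -21.5 percentage points in KO1 and -15.7 in KO15, on average -18.6, and by 7.06 in WT70 and 9.91 in WT72, on average 8.49. It is given because every KO line moved one way and every WT line the other, and the difference itself was not tested, since the day 5 libraries of both genotypes chose the regions. Over all promoter regions with variable calls the changes were -7.69 in KO1, -2.13 in KO15, 5.95 in WT70 and 8.77 in WT72. Peak numbers moved the same way, with 1729 with XAV against 2122 without in KO1, 2461 against 2738 in KO15, 1407 against 1270 in WT70 and 1717 against 1385 in WT72, and their part in the changes was not tested.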

How the results depend on the processing

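No comparison passed the test under any setting, since 2 lines against 2 cannot go below an exact permutation p = 0.333. Of 49 alternative values of the 4 comparisons, 45 kept their direction and 4 did not. MUT minus WT on day 5 XAV was 0.138 percentage points with stricter peaks (the lowest 25% by height left out) and 2.34 when at least 50% of a region had to be covered. Leaving out 1 line gave values without a test, from 11.9 to 35.1 for KO minus WT, -21.1 to 13.9 for MUT minus WT, 9.59 to 44.5 for KO minus MUT (all day 5 XAV) and -50.3 to 2.61 for day 5 XAV minus day 5 in MUT. At equal peak numbers (704) these comparisons gave 0.917, -0.596, 1.51 and -1.74. The paired fit (replicate block) of the XAV change in MUT gave -23.9 with exact p = 1. No other comparison tested had pairs.

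Counts of regions called in both KO and neither WT line moved by over 1.5 times at equal peak numbers. With 704 peaks in every library they were 19 (day 0), 16 (day 2), 22 (day 3), 52 (day 5) and 19 (day 5 XAV), and with equal numbers within each time point, in the same order, 15, 37, 40, 90 and 19. With at least 50% of a region covered they were 14, 17 and 58 on days 0, 2 and 3, and with stricter peaks 125 on day 3. Leaving out each line in turn, chosen after seeing the data, gave 2 to 152 on day 0 (152 without WT72), 10 to 77 on day 2 (77 without KO15), 198 to 290 on day 3, 419 to 606 on day 5 and 126 to 334 on day 5 XAV (334 without KO1). Of 120 alternative group shares 42 moved by more than 1 SD. The number of regions was 1075 and 1102 with windows of 500 bp and 3 kb, 1180 with the regions called in all libraries kept, and 1056 without those that only the CM59 library of day 5 XAV lacks. Peak lists limit these values, as a weak mark below a library's threshold counts as no peak.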
